A study of Mus musculus with 2 samples.

Results

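The insulin-like growth factor (IGF) axis was described in the embryonic mouse heart through 9 genes, chosen by their symbols among 55536 annotated genes. They are the ligand genes Igf2 and Igf1, the long noncoding RNA gene H19 beside Igf2, the receptor genes Igf2r, Igf1r and Insr, and Igf2bp1, Igf2bp2 and Igf2bp3, whose proteins bind Igf2 mRNA. All 9 were found in the tables, and all were detected, which here means a TPM of at least 1 in both libraries. TPM is a transcript abundance divided by length and scaled to a fixed total per library. Polyadenylated RNA was sequenced from whole hearts at embryonic day 12.5 in 2 libraries, biological replicates of a single group of strain B6NCrl, with male and female embryos pooled and 10 ng of starting RNA per library. No genotype or treatment was compared. The labels give both libraries 1 donor identifier and separate biosamples, so the spread given here concerns these 2 samples and may be partly technical. Counts on genes summed to 34248993 in replicate 1 and 31394912 in replicate 2.

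IGF2 and IGF1 are secreted growth factors that activate the tyrosine kinase receptors encoded by Igf1r and Insr, while the receptor encoded by Igf2r carries IGF2 to lysosomes and gives no kinase signal. In the mouse, Igf2 is expressed from the paternal allele, H19 and Igf2r from the maternal one. IGF2 is known as a growth signal for heart muscle cells of the embryo. All 10 cardiomyocyte markers looked up were detected, which matched the labelled tissue, and their median level was 3301 TPM in replicate 1 and 3372 in replicate 2. In whole tissue, fewer cells of a type and less RNA per cell cannot be told apart.

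The sequences around the annotated Igf2 starts are shown because the transcripts of this gene begin at several promoters. RefSeq gives 4 Igf2 starts on GRCm38.p6, all on the minus strand of chromosome 7, and 150 bases of each are printed, 120 before the start and 30 from it on. In transcription order the windows are chr7:142666787-142666936, chr7:142661242-142661391, chr7:142658775-142658924 and chr7:142657467-142657616. Capitals mark the GC box GGGCGG read on either strand. The TATA box TATAAA and the CCAAT box CCAAT were searched on both strands too, and no motif overlapped another. Of 32851 promoter windows of the same length, 29.1% held GGGCGG, 24.0% held CCAAT and 7.16% held TATAAA.
Igf2 start 1: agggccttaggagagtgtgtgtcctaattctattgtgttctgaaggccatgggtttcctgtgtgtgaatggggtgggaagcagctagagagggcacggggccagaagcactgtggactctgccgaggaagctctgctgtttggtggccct
Igf2 start 2: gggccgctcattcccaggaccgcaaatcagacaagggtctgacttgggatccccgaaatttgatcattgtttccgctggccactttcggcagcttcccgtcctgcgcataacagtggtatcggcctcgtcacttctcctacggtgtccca
Igf2 start 3: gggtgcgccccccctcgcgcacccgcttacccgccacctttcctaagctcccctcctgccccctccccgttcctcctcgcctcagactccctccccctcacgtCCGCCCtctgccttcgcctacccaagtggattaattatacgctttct
Igf2 start 4: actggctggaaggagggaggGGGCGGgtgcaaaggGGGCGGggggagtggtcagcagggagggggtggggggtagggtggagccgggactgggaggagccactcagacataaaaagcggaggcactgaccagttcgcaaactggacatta
The fourth window held 2 GC boxes, beginning 100 and 85 bases before the start, and the third held 1, beginning 17 bases before it. No window of Igf2 held TATAAA or CCAAT, and the first and the second held none of the motifs. Their G and C content was 56% for the first, 56.7% for the second, 65.3% for the third and 64.7% for the fourth, against a median of 54.7% over all windows. The first and the fourth RefSeq starts fell on the starts of the transcripts Igf2-203 and Igf2-201. The second lay 34 bases from that of Igf2-204, and the third lay 685 bases from the nearest start in the M21 annotation.

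This locus also holds 2 microRNA genes, whose mature products are shown because their hairpins lie in the 2 most abundant genes described here, with the seed, bases 2 to 8, in capitals. Mir675 (chr7:142577064-142577147) lies within exons of H19, and Mir483 (chr7:142654924-142654996) lies within an intron of Igf2.
miR-675-5p: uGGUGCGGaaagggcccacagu
miR-675-3p: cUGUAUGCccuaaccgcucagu
miR-483-5p: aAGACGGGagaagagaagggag
miR-483-3p: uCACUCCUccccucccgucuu
The 4 mature microRNAs have 4 different seeds. Both hairpin rows are listed at 0 counts, and their effective length in the tables is 0, so these libraries give no value for the microRNAs. The transcripts H19-202, H19-205 and H19-206 contain the whole Mir675 hairpin in their exons. Together they took 427 TPM in replicate 1 and 494 in replicate 2, which was 63.1 ± 0.917% of H19 TPM (SD, n = 2). H19-205 and H19-206 have 0 bases that no other H19 transcript has. The share thus depends on how shared reads were divided, which was not tested.

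Igf2 (ENSMUSG00000048583, chromosome 7, 142650766 to 142666816, minus strand, mm10) was the most abundant of the 9 genes. It stood at 1029 TPM in replicate 1 and 1054 in replicate 2, a mean of 1042 ± 17.9 TPM (SD, n = 2). This placed Igf2 at rank 76 of 22015 nuclear protein-coding genes. Igf1 (ENSMUSG00000020053, chromosome 10, 87858265 to 87937042, plus strand), the other growth factor, stood at 39.0 TPM in replicate 1 and 39.4 in replicate 2, a mean of 39.2 ± 0.283 TPM and rank 3655. Within a library the Igf2 level was 26.6 times the Igf1 level, a log2 ratio of 4.73 ± 0.01 (SD, n = 2), and 17.2 times on basic transcripts, the subset of models that GENCODE tags as representative. The ranges of these ligands did not overlap under any setting tried for the order of levels.

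H19 (ENSMUSG00000000031, chromosome 7, 142575529 to 142578143, minus strand) is a long noncoding RNA gene and shares its enhancers with Igf2. It stood at 684 TPM in replicate 1 and 776 in replicate 2, a mean of 730.01 ± 64.7 TPM, and had the widest relative spread of the 9 genes, an SD of 8.86% of its mean. Igf2 lay above H19 in both libraries, at 1.43 times its level (log2 ratio 0.52 ± 0.10), or 2.65 times on basic transcripts. Among the protein-coding genes the level of H19 would stand at rank 127.

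**Figure D1:**
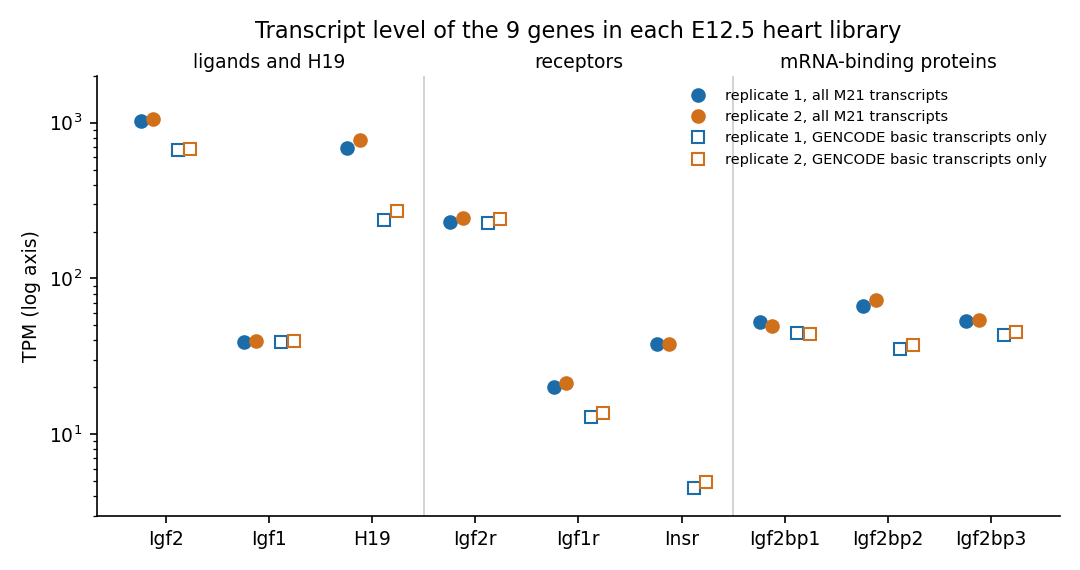
TPM of each gene (log axis) in replicate 1 (blue) and replicate 2 (orange), summed over all M21 transcripts (filled circles) or over the transcripts GENCODE tags as basic (open squares). Igf2 and H19 stand highest in the filled circles, and Insr lies at 4.51 and 4.95 TPM in the open squares.

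Igf2r (ENSMUSG00000023830, chromosome 17, 12682406 to 12769664, minus strand) was the highest of the receptor genes. Its level was 230 TPM in replicate 1 and 243 in replicate 2, a mean of 236 ± 9.09 TPM and rank 537. Its transcript Igf2r-201, which encodes the whole receptor, held 99.0 ± 0.349% of its TPM. Igf2 stood at 4.41 times the level of this clearance receptor (log2 ratio 2.14 ± 0.03), and at 2.88 times on basic transcripts. Counts not divided by length gave the opposite order, with a log2 ratio of -0.57. Airn, the noncoding RNA that starts inside Igf2r on the opposite strand, stood at 38.3 TPM in replicate 1 and 42.0 in replicate 2. Exons of Airn and Igf2r share 0 bases, and 114 exonic bases of Airn lie between the ends of Igf2r. Whether the counting used strand is not given in the sources used here, so reads of the 2 genes within Igf2r introns or ends cannot be told apart.

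Igf1r (ENSMUSG00000005533, chromosome 7, 67952827 to 68233668, plus strand), the main signalling receptor of both ligands, was the lowest of the 9 genes. It stood at 20.0 TPM in replicate 1 and 21.4 in replicate 2, a mean of 20.7 ± 0.976 TPM and rank 5933. Igf2r lay 11.4 times above it (log2 ratio 3.51 ± 0.01), or 17.5 times on basic transcripts. Insr (ENSMUSG00000005534, chromosome 8, 3122061 to 3279617, minus strand), the insulin receptor, stood at 38.2 TPM in replicate 1 and 37.9 in replicate 2, a mean of 38.0 ± 0.262 TPM and rank 3746. On gene totals Igf1r was lower than Insr in both libraries, with a log2 ratio of -0.93 in replicate 1 and -0.82 in replicate 2.

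The order of these kinase receptors turned round on full-length models. Of the Insr total, 82.1 ± 1.53% of TPM lay on Insr-202, a retained-intron transcript of 1675 bases that starts within the same start group as the full-length Insr-201 and encodes no protein. Insr-201, with 9355 bases, held 4.51 TPM in replicate 1 and 4.95 in replicate 2. Igf1r-201, with 11409 bases, held 13.0 TPM in replicate 1 and 13.7 in replicate 2. On basic transcripts, which are these 2 alone, Igf1r stood at 2.82 times the level of Insr (log2 ratio 1.496 ± 0.04), and their ranges did not overlap. Looking at basic transcripts was a choice made after these values were seen. By counts, Insr-201 held 43.9 ± 1.80% of Insr and Igf1r-201 held 93.9 ± 0.431% of Igf1r.

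**Figure D2:**
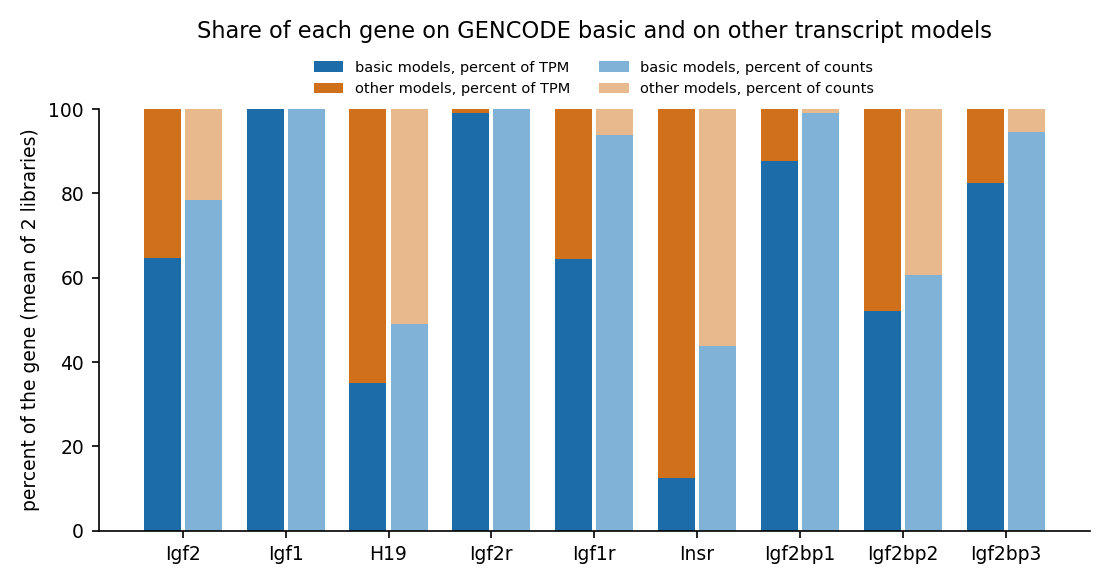
Percent of each gene on GENCODE basic transcript models (blue) and on other models (orange), by TPM (left bar of a pair) and by expected counts (right bar), as means of 2 libraries. Insr has 12.4% of its TPM and 43.9% of its counts on its basic model, while Igf1 and Igf2r have nearly all of both.

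Insr gives rise to 2 receptor forms through an alternative exon of 36 bases (chr8:3181702-3181737, minus strand). The form without it is known for binding IGF2. Igf1 has an exon of 52 bases (chr10:87915298-87915349, plus strand) that shifts the reading frame of the precursor's tail, the E peptide. Both exons are printed from the M21 transcripts, Igf1-203 and Insr-203.
Igf1 exon: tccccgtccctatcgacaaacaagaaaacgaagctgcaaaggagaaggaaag
Insr exon: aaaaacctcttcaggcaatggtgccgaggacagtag
Insr-201, the full-length transcript, lacks the exon of 36 bases, and it is held by Insr-203 alone among the protein-coding models. Insr-203, a fragment of 672 bases, had 0.42 TPM in both libraries, on 6 counts in replicate 1 and 5 in replicate 2. The share with the exon came to 8.17 ± 0.494% of the TPM of these 2 transcripts, 0.551% of their counts and 10.3% of their posterior mean TPM. The retained-intron transcript Insr-204 covers the same bases and had 1.5 TPM in replicate 1 and 1.82 in replicate 2. So few counts give little precision, and no base of Insr-203 is its own.

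For Igf1, transcripts that cover the exon of 52 bases held 11.0 TPM in replicate 1 and 10.6 in replicate 2, and those without it 28.1 TPM in replicate 1 and 28.8 in replicate 2. The share with the exon was 27.5 ± 0.811% of TPM (SD, n = 2) and 8.49% of counts. Igf1-202, with a 3′ untranslated region (UTR) of 6308 bases and without the exon, held 69.0 ± 0.767% of TPM, and Igf1-203, with the exon and no base of its own, held 20.7 ± 1.93%. Leader exons divided the gene unevenly. The transcripts Igf1-202, Igf1-203 and Igf1-207, which use the upstream leader, held 90.01 ± 2.47% of TPM, and 5 others with the downstream leader held 9.99 ± 2.47%. By counts the upstream leader had 97.1 ± 0.430% and the downstream one 2.90 ± 0.430%.

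The 9 annotated Igf2 transcripts fell into 7 start groups, in which starts lie within 100 bases of each other. Igf2-203, from the most upstream start, had 422 TPM in replicate 1 and 424 in replicate 2, or 40.6 ± 0.581% of Igf2 TPM. Igf2-208, a processed transcript of 958 bases that lies in the 3′ part of the gene and encodes no protein, had 309 TPM in replicate 1 and 330 in replicate 2, or 30.6 ± 0.861%. The group of Igf2-201 and Igf2-202, at the fourth RefSeq start with its 2 GC boxes, held 13.4 ± 0.592%. Igf2-205 held 10.5 ± 0.877%, and the group of Igf2-204 and Igf2-206 held 4.61 ± 0.036%. The remaining groups each held under 1% of TPM.

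The ranking of Igf2 starts was different by counts. Igf2-205, a model of 4722 bases, took 36.5 ± 2.42% of Igf2 counts (13081 in replicate 1 and 10773 in replicate 2), and Igf2-203, a model of 650 bases, took 16.8 ± 0.0465%. The group at the fourth RefSeq start took 24.7 ± 1.496% of counts. Igf2-205 has 1126 bases that no other Igf2 transcript has, whereas Igf2-203 has 41 and Igf2-202 and Igf2-208 have 0. The authors' posterior SD of the Igf2-203 count was 76.1 in replicate 1 and 72.5 in replicate 2, beside 5743 and 5216 counts. The shares by TPM divide counts by length and the shares by counts do not, so that SD cannot be set against their gap. Whether reads were given to the right start was not tested. All 5 basic Igf2 transcripts encode the growth factor, and they held 64.7 ± 0.889% of TPM.

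**Figure D3:**
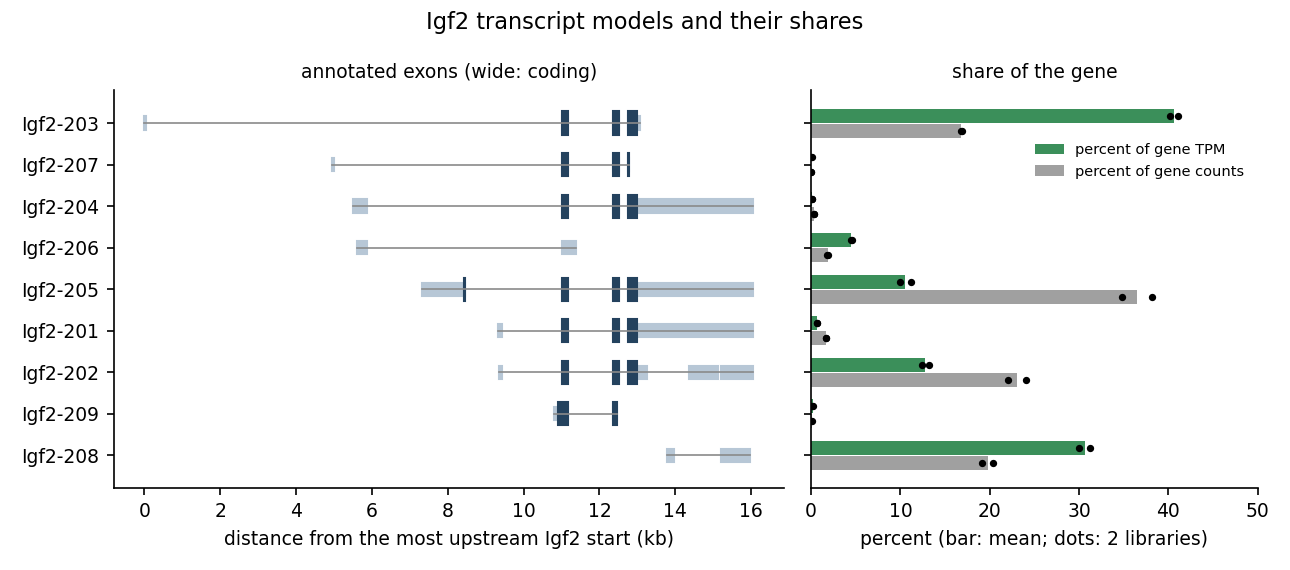
Left, annotated Igf2 transcripts by distance from the most upstream start (kb), with coding parts drawn wide. Right, each transcript's percent of Igf2 TPM (green) and of Igf2 counts (grey), bars being means and dots the 2 libraries. Igf2-203 leads by TPM at 40.6% and Igf2-205 leads by counts at 36.5%.

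H19 was carried mainly by 3 of its 7 annotated transcripts. H19-207 held 36.2 ± 0.992% of TPM, H19-202 held 34.9 ± 0.210% and H19-205 held 28.1 ± 0.707%. H19-202 alone is tagged basic, and it led by counts with 48.9 ± 0.136%. On that transcript alone H19 stood at 238 TPM in replicate 1 and 272 in replicate 2, a range that overlapped that of Igf2r on its basic transcript. H19-202 has 50 bases that no other H19 transcript has, out of 2286, and H19-205 and H19-207 have 0. The H19 shares and its level on the basic transcript thus depend on how shared reads were divided, which was not tested.

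The IGF2 mRNA-binding proteins are RNA-binding proteins, best known from fetal tissues, that steer the stability and translation of Igf2 and other mRNAs. Igf2bp2 (ENSMUSG00000033581, chromosome 16, 22059009 to 22163299, minus strand) stood at 66.8 TPM in replicate 1 and 72.2 in replicate 2, a mean of 69.5 ± 3.84 TPM. Igf2bp3 (ENSMUSG00000029814, chromosome 6, 49085223 to 49214957, minus strand) followed at 53.7 TPM in replicate 1 and 53.9 in replicate 2, a mean of 53.8 ± 0.141 TPM. Igf2bp1 (ENSMUSG00000013415, chromosome 11, 95957163 to 96005940, minus strand) stood at 52.4 TPM in replicate 1 and 49.2 in replicate 2, a mean of 50.8 ± 2.21 TPM. The 3 genes lay at ranks 2038, 2678 and 2821 in that order, and no range of the 2 libraries overlapped another. The authors' lower and upper bounds on TPM did overlap for Igf2bp3 and Igf2bp1. In replicate 1 they were 49.6 to 55.7 TPM for Igf2bp3 and 48.9 to 54.4 TPM for Igf2bp1. They lie around the authors' posterior mean TPM, which was 52.7 for Igf2bp3 and 51.5 for Igf2bp1 in replicate 1.

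Transcript models changed that order as well. Retained-intron transcripts held 46.3 ± 0.144% of Igf2bp2 TPM, and Igf2bp2-207 alone held 33.5 ± 0.562%. On basic transcripts Igf2bp1 averaged 44.4 ± 0.276 TPM, Igf2bp3 44.3 ± 1.39 TPM and Igf2bp2 36.2 ± 1.32 TPM. The ranges of Igf2bp1 and Igf2bp3 then overlapped, and Igf2bp2 lay below both. Igf2bp2-207 has 8 bases of its 3267 that no other Igf2bp2 transcript has, and Igf2bp2-201 has 326 of 3899. The authors' posterior SD of the Igf2bp2-207 count was 155 in each library, beside 1726 counts in replicate 1 and 1729 in replicate 2. The place of Igf2bp2 on basic transcripts thus depends on how shared reads were divided, which was not tested. The full-length Igf2bp1-201 held 87.6 ± 3.26% of Igf2bp1 TPM and Igf2bp3-201 held 82.4 ± 2.36% of Igf2bp3 TPM.

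Several genes of this axis are known targets of the let-7 microRNAs, so the 3′ UTRs were searched for the let-7 seed match. The 8 named mature let-7 microRNAs of the RefSeq table share the seed GAGGUAG, shown in capitals in 2 of them.
let-7a-5p: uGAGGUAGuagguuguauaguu
let-7g-5p: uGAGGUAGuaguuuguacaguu
The matching letters CTACCTC were counted on the transcript strand in the longest basic 3′ UTR of each gene. Of 20958 genes with a 3′ UTR, 1879 (8.97%) held a match, a density of 0.0698 per kb. Among the 8 protein-coding genes of the axis, 7 held at least 1, and Igf2 held none in 3050 bases. Igf2bp1 held 4 in 6337 bases (0.631 per kb). Of 420 windows of that length cut from the 3′ UTRs of other genes, 36.4% held at least 1 and 0 held 4 or more. Igf1r held 2 in 7267 bases (0.275 per kb). Of 263 windows of that length, 38.8% held at least 1 and 22 held 2 or more. Genes outside the axis held as many or more per kb, such as the known let-7 targets Lin28b with 4 in 4445 bases (0.8999 per kb) and Hmga2 with 4 in 3014 bases (1.33 per kb). Igf1, Igf2r, Insr, Igf2bp2 and Igf2bp3 held 1 each, beside 35.8%, 8.02%, 26.02%, 10.8% and 12.8% of windows of their lengths. The matches of the mRNA-binding protein genes are printed with their neighbouring bases, the match in capitals.
Igf2bp1 site 1: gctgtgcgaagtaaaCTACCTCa
Igf2bp1 site 2: cagcagtgctattaaCTACCTCa
Igf2bp1 site 3: gtataaatggatgaaCTACCTCa
Igf2bp1 site 4: acttttggttttaatCTACCTCt
Igf2bp2 site 1: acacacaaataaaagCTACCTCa
Igf2bp3 site 1: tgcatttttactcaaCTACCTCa
They lie at chr11:95961778-95961800, chr11:95959357-95959379, chr11:95958763-95958785 and chr11:95958140-95958162 for Igf2bp1, at chr16:22059473-22059495 for Igf2bp2 and at chr6:49086787-49086809 for Igf2bp3. A match is a run of letters and does not show that a microRNA binds there.

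In order of mean TPM the genes ran Igf2, H19, Igf2r, Igf2bp2, Igf2bp3, Igf2bp1, Igf1, Insr and Igf1r. In none of the 8 neighbouring pairs did the ranges of the 2 libraries overlap. The closest were Igf1, at 39.0 TPM or above, and Insr, at 38.2 TPM or below. The authors' lower and upper bounds on TPM did overlap for this pair in both libraries. In replicate 1 they were 37.1 to 41.5 TPM for Igf1 and 35.5 to 39.4 TPM for Insr. Those of Igf2bp3 and Igf2bp1 overlapped too, so the order within these pairs is uncertain. The bounds lie around the posterior mean TPM and need not hold the TPM used here. For Igf2 in replicate 1 they were 983 to 1018 TPM, below its TPM of 1029. On basic transcripts the ranges of the 2 libraries did not overlap in 6 of 8 pairs. The older M4 annotation gave the same order with Igf2bp1 above Igf2bp3, at 52.6 ± 2.23 and 49.6 ± 1.46 TPM.

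Of the 9 genes, TPM on M21 was within 1.5 times of that on M4 for every one, between 0.935 times for Igf1r and 1.08 times for Igf2bp3. Igf1r counts were the exception, with 3847 on M21 and 2237 on M4 in replicate 1, and 3688 on M21 and 2128 on M4 in replicate 2. Its effective length was 7793 bases on M21 and 4390 bases on M4 in replicate 1.

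The genes around the axis were described by lists of known roles. Of 77 list entries with an effective length above 0, 62 were detected, against 56.6% of 22015 nuclear protein-coding genes. The entries include noncoding genes such as Meg3 and Airn and count Grb10 more than once, so these sets differ in kind. Both insulin genes, Ins1 and Ins2, were listed at 0 in both libraries. Of 8 genes for IGF binding proteins, which hold the ligands outside cells, 6 were detected. Igfbp4 led at 294 ± 4.97 TPM, before Igfbp5 at 141 ± 2.18 TPM, Igfbp2 at 72.3 ± 1.27 TPM and Igfbp7 at 30.5 ± 0.735 TPM. Igfbp1, at 0.48 TPM in replicate 1 and 0.13 in replicate 2, and Igfals, whose product carries IGF in serum, were under 1. The list's median was 24.8 ± 0.378 TPM beside 3.23 ± 0.0141 TPM over all protein-coding genes.

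A list of proteases that free IGF from its binding proteins, their inhibitors and convertases such as Furin was lower. Of its 8 genes 6 were detected, with a median of 3.73 ± 0.279 TPM over all 8. Htra1, a secreted protease that cleaves binding proteins, led at 57.8 ± 1.56 TPM, followed by the convertases Furin at 19.7 ± 0.707 TPM and Pcsk5 at 19.5 ± 0.375 TPM, and by Stc1 at 4.53 ± 0.594 TPM, which inhibits the pappalysins. The pappalysins themselves, Pappa at 0.885 ± 0.0071 TPM and Pappa2 at 0.16 ± 0.042 TPM, were under 1.

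Adaptors that take the signal from the receptors were detected for 8 of 10 genes (median 24.1 ± 0.880 TPM). Grb10, an imprinted adaptor that dampens receptor signalling, stood highest at 643 ± 9.47 TPM, before Grb2 at 81.4 ± 8.99 TPM, Shc1 at 60.2 ± 1.31 TPM and Grb14 at 51.7 ± 1.59 TPM. Irs4 and Insrr, an orphan relative of the receptors placed on this list, were under 1. All 19 genes of the PI3K-AKT-mTOR relay were detected (median 17.5 ± 0.651 TPM). Rheb led at 207 ± 4.77 TPM, before Akt1 at 142 ± 2.84 TPM, Akt2 at 68.1 ± 2.17 TPM and Tsc2 at 55.1 ± 4.26 TPM. The place of Tsc2 depended on the annotation. On M4 it stood at 27.9 TPM in replicate 1 and 30.4 in replicate 2, below Rps6kb1 at 46.2 TPM in each library.

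Imprinted growth genes and neighbours of the 2 imprinted clusters were detected for 12 of the 18 that have an effective length above 0, which leaves out both microRNA hairpins. Mest stood at 2797 ± 165 TPM, Cdkn1c, an inhibitor of the cell cycle, at 1004 ± 71.4 TPM, Grb10 as above and Meg3, a noncoding RNA, at 217 ± 12.0 TPM. The median of the 18 was 3.26 ± 0.396 TPM, and Slc22a18, Ascl2, Slc22a2, Slc22a3, Mas1 and Nctc1 were under 1. Igf2os, on the strand opposite to Igf2, had 2.09 TPM in replicate 1 and 3.04 in replicate 2, and 98 of its exonic bases are shared with Igf2. Among let-7 and IGF2BP partners 11 of 12 were detected (median 55.4 ± 4.31 TPM). They were led by Actb, whose mRNA is a known target of IGF2BP1, at 4948 ± 30.9 TPM. The RNA-binding genes Ybx1 at 685 ± 25.8 TPM, Hnrnpu at 381 ± 5.71 TPM and Elavl1 at 167 ± 3.09 TPM followed. Some of these levels depended on the annotation. On M4, replicates 1 and 2 gave Actb 2211 and 2277 TPM, Hnrnpu 84.8 and 96.5, and Elavl1 62.7 and 63.1. Hmga1, at 167 and 161 TPM on M4, then stood above Hnrnpu and Elavl1. Lin28b, which blocks let-7 maturation, stood at 4.28 ± 0.615 TPM, and Lin28a was under 1 in both libraries.

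**Figure D4:**
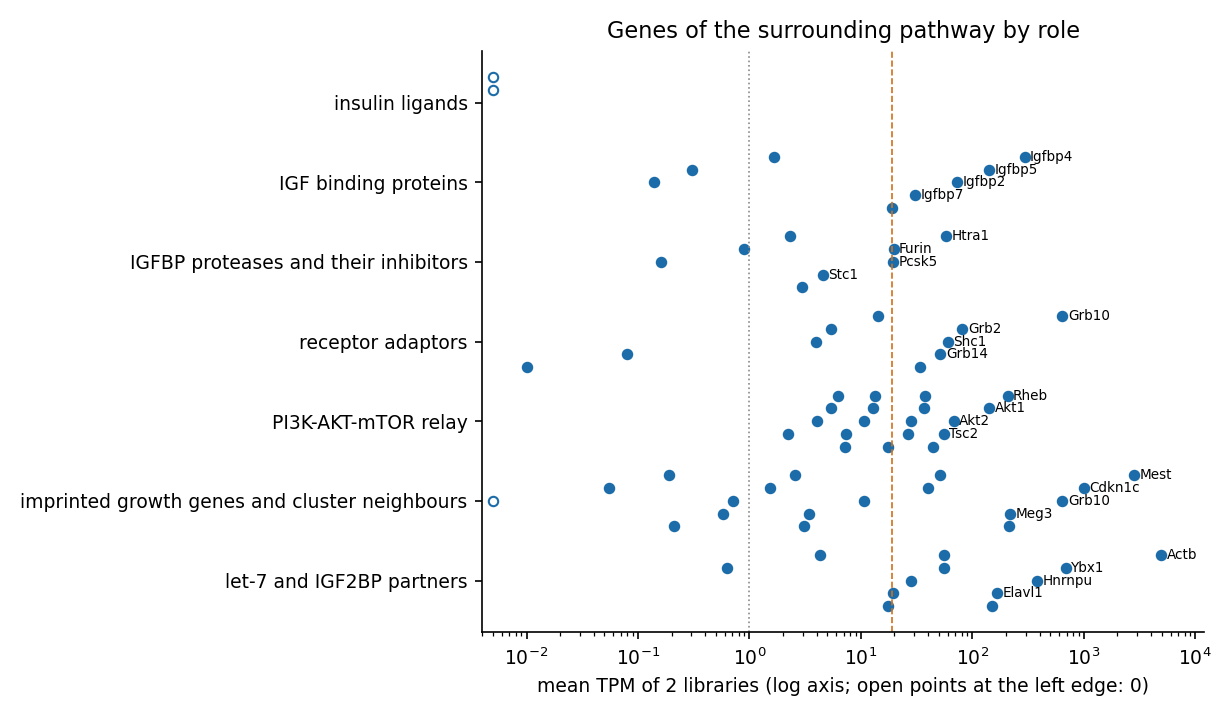
Mean TPM of 2 libraries (log axis) for genes of the surrounding pathway, a row per role, with the up to 4 highest named. The dotted line marks a TPM of 1 and the dashed line the median of detected protein-coding genes, 19.03 TPM; Grb10, Igfbp4 and Mest lie well to its right, and genes listed at 0, such as Ins1 and Ins2, are open points at the left edge.

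Between the libraries, all 9 genes were tested and 0 were called, at an adjusted p under 0.05 with a log2 ratio of at least 1 in size, by an exact conditional binomial test with Benjamini-Hochberg adjustment. Over all genes 282 of 17970 tested were called, a share of 1.57%. The count was also 0 with DESeq2 size factors, and 5 of the 9 genes had an unadjusted p under 0.05, beside 22.6% of all genes tested. By adjusted p alone 2 of the 9 passed, beside 10.0% of all genes tested. H19 had 26296 counts in replicate 1 and 27088 in replicate 2, a log2 ratio of -0.16 (exact 95% interval -0.18 to -0.13, adjusted p = 2.3e-33). Igf2r had 49243 counts in replicate 1 and 47252 in replicate 2, a log2 ratio of -0.05 (-0.07 to -0.04, exact adjusted p = 5.2e-07). The test covers counting error only, so it compares these libraries and no condition.

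The other 7 log2 ratios lay between -0.07 for Igf2bp2 and 0.05 for Igf2bp1. Igf2 had 34252 counts in replicate 1 and 30986 in replicate 2, a log2 ratio of 0.03 with an exact adjusted p of 0.0599. Of the 78 distinct genes of the pathway lists, 68 were tested and 0 were called. By adjusted p alone 7 were higher and 8 lower in replicate 1, among them 7 of the 15 imprinted genes and neighbours tested. Over all genes tested 10.0% passed by this rule, 1027 higher and 772 lower in replicate 1, a share that also depends on counts. The median size of the log2 ratio was 0.0485 for the 9 genes and 0.0992 over all genes tested. The libraries differed in other cells' markers. Of 14 hepatocyte markers, genes of liver secretory proteins, 13 were called higher in replicate 1, beside 1.57% of all genes tested called in either direction. The 14 summed to 266 TPM in replicate 1 and 72.0 in replicate 2. Of the 14, 8 were detected by the rule used here, and 0 were under 1 TPM in both libraries. By adjusted p alone 8 of 10 erythroid markers were higher in replicate 1, with a summed 44342 TPM in replicate 1 and 39778 in replicate 2. The 10 cardiomyocyte markers summed to 34462 TPM in replicate 1 and 34639 in replicate 2, and by the same rule 3 were higher and 3 lower in replicate 1. Of 10 endothelial and endocardial markers 1 was higher and 1 lower (summed 695 TPM in replicate 1 and 729 in replicate 2), and 0 of 8 epicardial markers passed (274 TPM in replicate 1 and 270.2 in replicate 2). Their part in the H19 and Igf2r ratios was not tested.

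**Figure D5:**
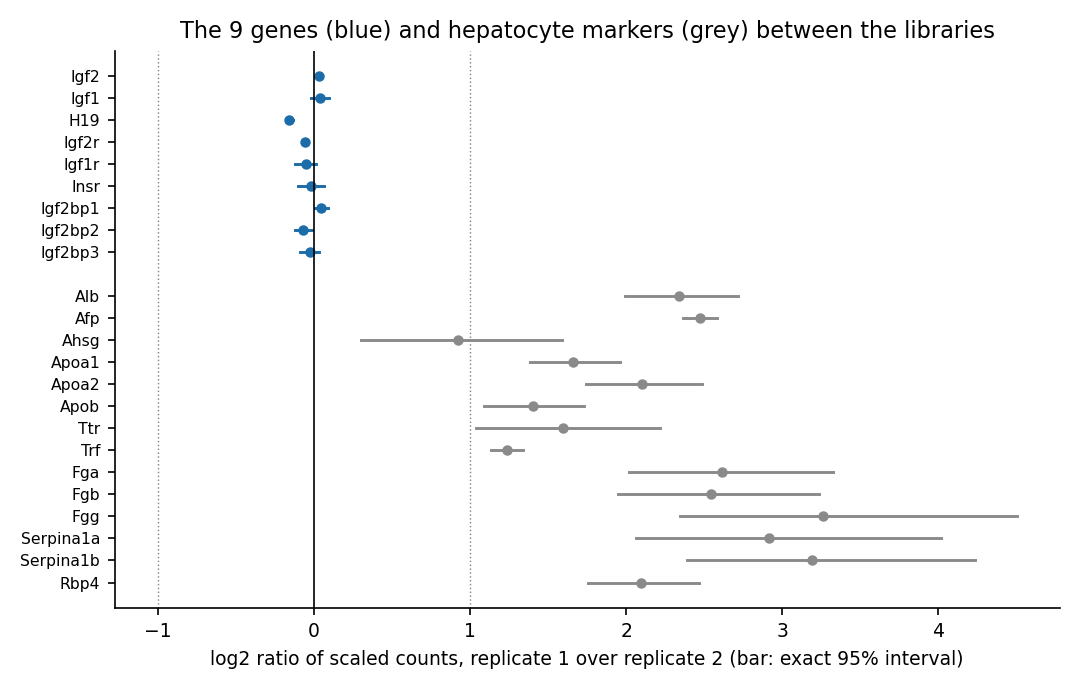
Log2 ratio of scaled counts, replicate 1 over replicate 2, with exact 95% intervals, for the 9 genes (blue) and 14 hepatocyte markers (grey); dotted lines mark the fold threshold. The 9 genes lie within 0.16 of 0, and 13 of the markers lie to the right of the threshold.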

How the data were processed

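Polyadenylated RNA of whole E12.5 mouse hearts was measured in 2 libraries. Per the labels, RNA was extracted with mirVana, ERCC RNAs were spiked in, and fragmentation was by Nextera tagmentation. The authors deposited gene and transcript tables on annotations M21 (used as main) and M4, both on mm10. Expected counts in the deposited tables estimate the reads of each feature, and they were rounded for tests. The deposited TPM values, and the authors' posterior mean TPM, are scaled by effective length to the same total in every library over all features, spike-ins included. The deposited FPKM values are scaled by effective length and read total, per the file headers. The deposited percent column of transcripts was not used for the shares, which were computed from TPM or counts. Which aligner and counter the authors ran, and whether strand was used, is not given in the sources used here.

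Rows with numeric identifiers (26248, holding 0.00012% of counts in each library) were left out. ERCC RNAs took 3.58% of counts in replicate 1 and 3.63% in replicate 2. Symbols and coordinates came from GENCODE M21, matched by gene identifier, and all list symbols matched. Sequences came from RefSeq (GRCm38.p6) and the M21 transcripts; H19, Insr and Igf2bp1 promoters were not used here.

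Levels and shares are means ± SD (n = 2), with no test. Libraries were compared by a two-sided exact conditional binomial test on counts scaled by TMM (edgeR 4.0.16; alternatives with DESeq2 1.42.0), replicate 1 over replicate 2, for genes whose counts summed to 20 or more, with 0.5 added to scaled counts for ratios. Intervals cover counting error only. Per list the text names up to 4 highest genes, any called, and any under 1 TPM in both libraries. The 9 genes and the lists were chosen with earlier results of these data known. Alternatives were the M4 annotation, other units, thresholds, scalings, pseudocounts and leaving out a replicate.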

Additional observations from a re-analysis of the deposited data

How the results depend on the processing

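All 9 genes stayed detected under every alternative tried. The median level of the 9 genes, 53.8 TPM, became 52.6 on M4, 37.1 in FPKM, 52.8 as posterior mean TPM, 65.8 TPM rescaled over nuclear genes without globins and 43.8 TPM on basic transcripts alone, an alternative added after seeing the data. It ranged from 53.7 to 53.9 TPM leaving out a replicate. Without a fold threshold 2 genes, H19 and Igf2r, differed between the libraries in place of 0. With ERCC totals as the scaling, Igf2 passed too by adjusted p alone (0.00675, exact test, log2 ratio 0.04, against 0.0599 with TMM).

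The share of Igf1 with the exon of 52 bases was 28.9% by posterior mean TPM and 8.49% by counts, this one added after seeing the data, and ranged from 26.9 to 28.1% leaving out a replicate. By counts, 1 gene (Igf1r) differed over 1.5 times between annotations in place of 0. In log2, counts not divided by length reversed Igf1r/Insr (0.69), Igf2/Igf2r (-0.57), Igf2bp1/Igf2bp2 (0.74) and Igf2bp1/Igf2bp3 (0.90). Basic transcripts reversed Igf1r/Insr (1.496), Igf2bp1/Igf2bp2 (0.30) and Igf2bp2/Igf2bp3 (-0.29) and left Igf2bp1/Igf2bp3 a tie, with a mean of 0.0042, 0.04 in replicate 1 and -0.03 in replicate 2. M4 reversed Igf2bp1/Igf2bp3 (0.0857). The first set drops the division by length and the second drops transcripts; the cause of the M4 change was not tested. Igf2/Igf1, Igf2/H19 and Igf2r/Igf1r kept their direction under every alternative tried. With 2 libraries, depth limits chiefly the transcripts of few counts, such as Insr-203. No paired analysis was possible because there is 1 group.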

Other observations

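The search for the let-7 seed match also covered 2 known let-7 targets outside the 9 genes. Windows of the length of the Lin28b 3′ UTR, cut from other genes, held at least 1 match in 24.6% of cases, and 2 of 1234 held 4 or more. For the length of Hmga2, a chromatin protein gene of fetal tissues, 17.7% held at least 1, and 1 of 3372 held 4 or more. Their levels were 4.28 ± 0.615 TPM for Lin28b and 17.4 ± 1.09 TPM for Hmga2 (SD, n = 2).

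Gm49394, an annotated readthrough gene that shares 3596 exonic bases with Igf2, was named after its values were seen. It had 3 counts in replicate 1 and 17 in replicate 2, a log2 ratio of -2.43 (exact 95% interval -5.03 to -0.83, exact adjusted p = 0.0167), while Igf2 had 34252 counts in replicate 1 and 30986 in replicate 2. Because the exons are shared, the split of reads between these genes is uncertain. The authors' posterior SD of the Gm49394 count was 4.08 in replicate 1 and 6.98 in replicate 2, an error that the test does not cover.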
